A study of Mus musculus with 20 samples.

Results

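The comparison described here was between enzalutamide-resistant and treatment-naive prostate cancer cells that had both been taken from bone metastases depleted of macrophages. Its members were all 5 libraries of the resistant, macrophage-depleted group (Resist-Mac) and all 5 libraries of the naive, macrophage-depleted group (Naive-Mac), which are 10 of the 20 tumor cell libraries of the study. The tumor cells were MycCaP-Bo, a murine prostate cancer line from a Myc-driven tumor model that had been selected for bone homing by repeated passage through mice. They were injected into the heart of male FVB/N mice aged 4 to 6 weeks, and the cells sequenced were sorted from bone as CD45- iRFP+ cells, that is, cells without the pan-leukocyte surface marker that carried the near-infrared fluorescent label of the line. Each library was a pool of tumor cells from 3 mice. Resist-Mac mice received enzalutamide at 30 mg/kg by daily gavage for 18 days, with clodronate liposomes, which kill phagocytes, given intravenously at 1 mg per mouse in the last 4 days. Naive-Mac mice received no enzalutamide and the same dose of clodronate liposomes, whose schedule in this group is not given beyond injections each week. The groups without depletion were Resist, with enzalutamide at the same dose for 18 days, and Naive, with vehicle, each of 5 libraries. All the results therefore come from a single cell line in a single host strain. Naive and Resist were sequenced as batch 1, Resist-Mac as batch 2 and Naive-Mac as batch 3, so that in the comparison with depletion the batch and the treatment cannot be told apart.

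The androgen receptor is a hormone-activated transcription factor that drives most prostate cancers, and enzalutamide blocks it. Tumor-associated macrophages can release growth factors and cytokines to cancer cells and remodel the matrix around them, and resistance to androgen blockade is often accompanied by a shift of epithelial cells to a more mesenchymal program, with matrix and integrin genes turned on. The question addressed by the comparison was which of the expression changes that separate resistant from naive cells with macrophages present are also found when macrophages have been removed from both.

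The values were FPKM, fragments normalized to the length of the transcript and the number of mapped fragments, from 3 tables that the authors normalized separately. Of the genes listed in both depleted tables, 14003 in number, 9752 averaged 1 FPKM or more across these libraries and were tested. The summed FPKM of a library lay between 617066 and 761298 in Resist-Mac and between 880145 and 1038990 in Naive-Mac, and the libraries were brought to a common scale by median-ratio scaling. Values below are these scaled FPKM, in the order of replicates 1 to 5, and log2 changes are on the log2(FPKM + 1) scale, which understates the change of low genes. Read counts were not used here and the depth of each library is unknown. P-values measure the spread between these libraries, some of which may be related. The names of Resist-Mac replicates 2 and 3 share a code, as do those of Resist-Mac replicates 4 and 5 and of Naive-Mac replicates 1 and 4, and what the code stands for is not given. Parts of the name of Resist-Mac replicate 1 also recur in those of replicates 4 and 5, but it was counted as sharing no code. The deviations from the group mean correlated across genes at 0.53 and 0.24 within the 2 Resist-Mac pairs, where the other 8 pairs of that group had a median of -0.50, and at -0.08 within the Naive-Mac pair, where the other 9 had a median of -0.39. In Naive-Mac, replicates 3 and 4 (0.36) and replicates 2 and 5 (0.17) correlated more than that pair without sharing a code. Resist-Mac replicate 1 correlated at -0.07 with replicate 4 and at 0.11 with replicate 5. If paired libraries are not independent, the p-values are too small.

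The libraries had the defining markers of the sorted cell type, with the summed level of 10 prostate epithelial markers between 247 and 337 in Resist-Mac and between 319 and 406 in Naive-Mac. Of the defining macrophage markers, the highest level of *Csf1r*, the receptor for macrophage colony-stimulating factor, was 1.85 scaled FPKM, and that of *Adgre1*, which encodes F4/80, was 0.458. Other members of that list, shared with further myeloid cells, were higher, with maxima of 65.9 for *Cd14*, 66.7 for *Tyrobp* and 9.67 for *Itgam*. Of the 11 tested, 1 was called higher in Resist-Mac and 0 lower, with a median log2 change of 0.81 after the correction for length and GC content given below. It was *Cd68*, a lysosomal glycoprotein, at 3.17, 0.916, 0.746, 1.66 and 3.47 in Resist-Mac and 1.51, 0.302, 1.46, 0.596 and 0.645 in Naive-Mac, where the groups overlapped (corrected log2 change 1.23 ± 0.29, adjusted p = 0.00406, and 0.60, not called, without the correction). The summed level of all 23 listed macrophage markers, in most libraries largely from *Lyz2*, which neutrophils also express, ranged from 44.4 to 905 in Resist-Mac and from 10.7 to 638 in Naive-Mac. The 16 neutrophil markers summed to between 415 and 8150 in Resist-Mac and to between 96.7 and 7143 in Naive-Mac, and 0 of 16 were called by limma. In Naive-Mac replicate 2 both sums were the lowest of the group. Hemoglobin and other erythroid markers summed to between 119 and 467 in Resist-Mac and to between 314 and 2140 in Naive-Mac. In uncorrected values 3 of the 3 tested were called lower in Resist-Mac, with a median log2 change of -2.10. After the correction 1 was tested and 0 were called. The part of these cells in the results was not tested, and fewer cells of a type and less RNA per cell cannot be told apart in such libraries.

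Much of the difference between Resist-Mac and Naive-Mac in scaled FPKM ran along with the length of the transcript. Genes with long transcripts were higher in Resist-Mac and genes with short transcripts were higher in Naive-Mac. With genes divided by length into 5 groups of equal size, the median log2 change was -0.80 for the shortest transcripts (132 to 1666 bases), 0.04 for the middle group and 0.84 for the longest. Across genes the Spearman correlation of log2 change and transcript length was 0.66, against 0.17 for Resist versus Naive, given as a description since genes are not independent replicates. In scaled FPKM, 2302 genes were called higher in Resist-Mac (23.6% of those tested) and 2143 lower (22%) at a fold change over 1.5 and a limma adjusted p under 0.05. The groups did not overlap at all for 4802 genes (49.2%), against 1357 (13.5%) in Resist versus Naive.

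**Figure D1:**
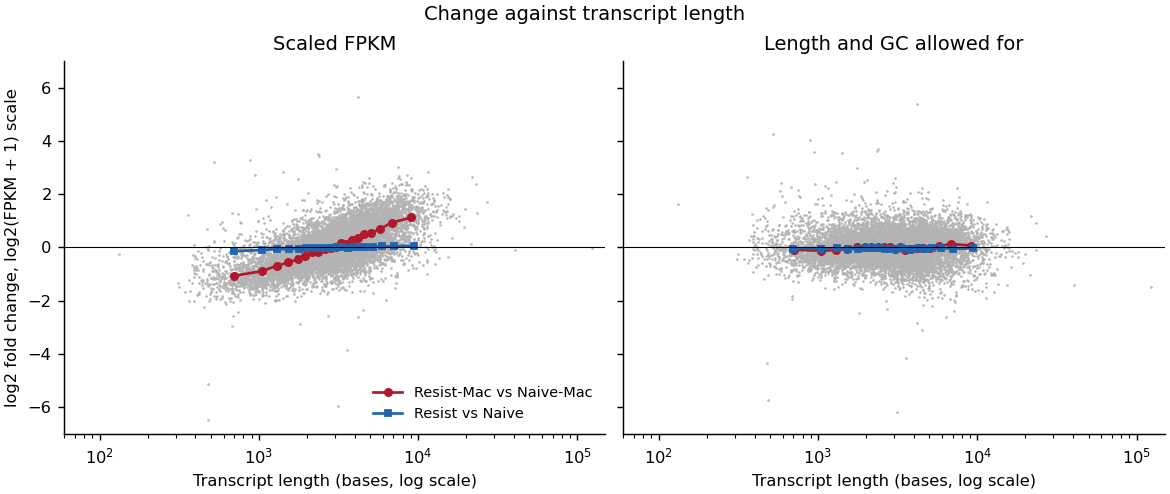
Log2 fold change of each gene in Resist-Mac versus Naive-Mac (grey points) against transcript length in bases on a log axis, in scaled FPKM (left) and with length and GC content allowed for (right). Red circles and blue squares are the medians of equal-sized bins of genes for the comparisons with and without depletion. The red line climbs with length on the left, and both lines stay near 0 on the right.

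A smooth function of transcript length and GC content was therefore fitted in each library and taken out, which also removes any change in the cells that runs along with length. After it the correlation with length was 0.03, and 1197 genes were called higher in Resist-Mac (12.3%) and 1257 lower (12.9%) of 9736. Without depletion, the same procedure called 411 genes higher (4.11%) and 164 lower (1.64%) in Resist versus Naive, where uncorrected values gave 472 (4.7%) and 142 (1.41%). Of the 2454 calls with depletion, 1854 were kept whichever single library was left out and 0 changed sign. With the libraries that share a code averaged, which left 3 and 4 replicates and was chosen after seeing the data, 1119 genes were called higher and 1255 lower, 2253 of the 2454 calls were kept, and 0 changed sign. Changes below are with length and GC content allowed for unless they are called uncorrected.

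Part of the resistance changes seen with macrophages present were also called when macrophages had been removed, and very few were called in the opposite direction. Of 375 genes higher in Resist than in Naive and tested in both comparisons, 141 (37.6%) were also higher in Resist-Mac than in Naive-Mac, 231 were not called and 3 were lower. Of 156 genes lower in Resist, 57 (36.5%) were lower, 92 were not called and 7 were higher. Among all 9452 genes tested in both, 12.2% were called higher and 13.2% lower with depletion. The 141 genes were 12.2% of the 1157 called higher with depletion, and the 57 genes were 4.57% of the 1248 called lower, so that most calls with depletion were on other genes. The median change with depletion was 0.53 for the 375 genes and -0.41 for the 156 genes, beside -0.03 for all genes. Of the 375 genes, 316 (84.3%) had a change above 0 with depletion, against 47.7% of all genes. Of the 156 genes, 119 (76.3%) had a change below 0, against 52.3% of all. The comparisons with and without depletion share no library.

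Without the correction the recurrence depended on length. In uncorrected values, 223 of 426 higher genes (52.3%) and 63 of 136 lower genes (46.3%) recurred, and the share of higher genes that did so went from 8.70% among the shortest transcripts to 83.3% among the longest, beside 1.27% and 62.5% of all genes in the same length groups called higher with depletion. After the correction these shares were 33.8% and 28.2%, beside 8.29% and 16.2% of all genes, with 48.2% in the second-shortest group as the highest. A stricter set was called the same way in both comparisons both with and without the correction, and held 104 higher and 40 lower genes. The size of the change was tested between the comparisons as an interaction term over all 20 libraries, where 1110 of 9855 genes had a larger value with depletion (11.3%) and 1107 a smaller one (11.2%). Of the 104 higher genes in the stricter set, 3 differed in each direction, and of the 40 lower genes 5 had a larger fall with depletion. A difference that misses the threshold does not show that the changes were of one size.

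**Figure D2:**
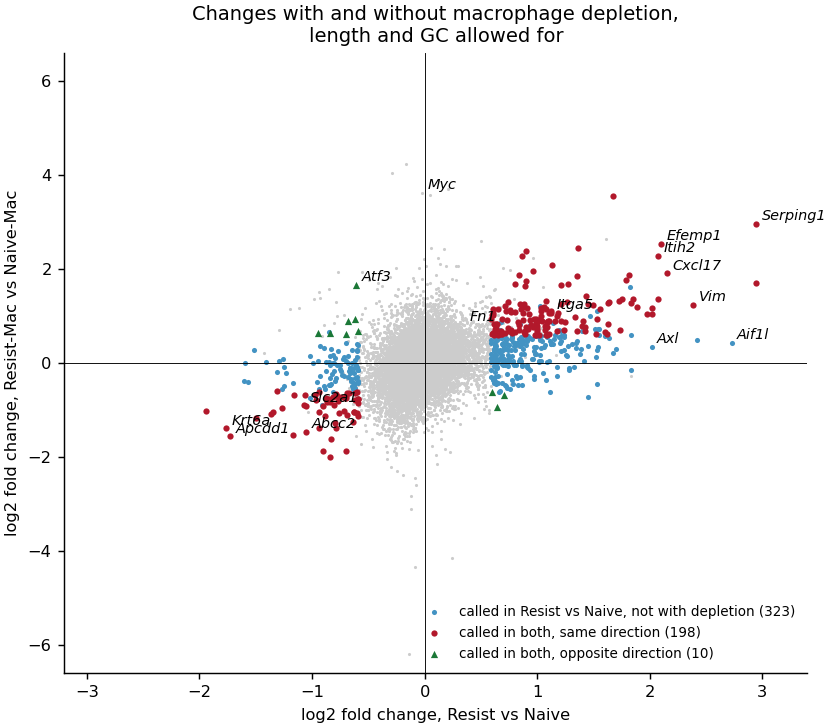
Log2 fold change in Resist-Mac versus Naive-Mac (vertical) against Resist versus Naive (horizontal), each point a gene with length and GC content allowed for. Red points are the 198 genes called in the same direction in both comparisons, blue points those called without depletion alone, and green triangles the 10 called in opposite directions.

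The recurring higher genes described were chosen by the smaller of their 2 changes, among those without a close pseudogene and above 0 in every library. The first 4, given in that order, were mostly secreted or matrix proteins, which is a description and not a tested theme. *Serping1*, which encodes the inhibitor of the first complement component, was at 24.6, 12.3, 15.6, 8.67 and 3.5 in Resist-Mac and at 0.141, 11.5, 0.472, 0.34 and 0.117 in Naive-Mac, a log2 change of 2.97 ± 0.66 (adjusted p = 0.00288). Naive-Mac replicate 2 was above 2 of the 5 resistant libraries and the other 4 naive libraries were low, so that the groups overlapped. *Efemp1*, a fibulin of the extracellular matrix, was at 21.1, 24.3, 33.9, 23.8 and 17.1 in Resist-Mac against 4.7, 12.7, 3.53, 4.54 and 2.73 in Naive-Mac, a log2 change of 2.53 ± 0.32 (adjusted p = 7.09e-05). *Itih2*, a heavy chain that links to the matrix polysaccharide hyaluronan, was at 16.2, 16.3, 16.8, 14.9 and 7.04 against 1.22, 3.41, 1.74, 2.06 and 1.81, a log2 change of 2.29 ± 0.23 (adjusted p = 2.14e-05). Neither gene overlapped between the groups, with Naive-Mac replicate 2 the highest naive library for both. *Cxcl17*, a chemokine of mucosal epithelia, was at 35.1, 22.2, 21.5, 52.4 and 23.4 against 11.6, 17.3, 9.17, 18.4 and 18.7, a log2 change of 1.92 ± 0.32 (adjusted p = 0.000492). Its transcript is short (760 bases), and the correction made this change larger than that between the values listed. Without depletion these 4 genes had log2 changes of 2.94, 2.10, 2.07 and 2.15, in that order.

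Another 6 higher genes were named by the same rule. *Sema3f*, a secreted guidance factor of the semaphorin family, was at 11.9, 7.1, 9.63, 17.6 and 9.09 against 2.07, 3.83, 1.19, 2.41 and 1.98, with no overlap and a log2 change of 1.42 ± 0.20 (adjusted p = 0.00018). *Flvcr2*, a membrane transporter, was at 7.34, 14.2, 16, 5.44 and 6.59 against 1.07, 3.09, 0.985, 1.56 and 1.47, again with no overlap, and its log2 change was 1.76 ± 0.30 (adjusted p = 0.00054). *Eml1*, a microtubule-associated protein, was at 5.88, 6.97, 6.14, 7.62 and 3.02 against 0.127, 1.26, 0.623, 1.35 and 0.903, a log2 change of 1.37 ± 0.24 (adjusted p = 0.000644). In these genes every resistant library was above every naive one. *Upk1b*, a uroplakin of urothelial membranes, was at 6.32, 5.12, 6.5, 5.48 and 1.61 against 0.507, 5.86, 0.774, 0.468 and 0.563, a log2 change of 1.88 ± 0.44 (adjusted p = 0.00401). Here the groups crossed in Resist-Mac replicate 5 and Naive-Mac replicate 2. Of the detoxifying enzymes, *Aldh1a7*, an aldehyde dehydrogenase, was at 92.8, 120.2, 93.9, 73.8 and 49.2 against 41.6, 90.4, 30.3, 29.2 and 41.1, a log2 change of 1.37 ± 0.29 (adjusted p = 0.00215). *Ephx1*, the microsomal epoxide hydrolase, was at 13.8, 15.1, 28.7, 12.6 and 13.4 against 8.95, 13, 5.55, 10.1 and 3.47, a log2 change of 1.36 ± 0.30 (adjusted p = 0.00283). Both overlapped between the groups, and without depletion their changes were 2.08 and 1.76.

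The recurring lower genes held keratins, fibrinogen chains and stress-responsive genes. *Krt6a*, a keratin of stressed and wounded epithelium, was at 9.58, 14.5, 24.5, 15.8 and 15.7 in Resist-Mac and at 64.1, 32, 42, 67.2 and 31.1 in Naive-Mac, a log2 change of -1.39 ± 0.26 (adjusted p = 0.000967). Its partner keratin *Krt16* was at 0.714, 0.435, 0.887, 0.397 and 1.27 against 9.64, 1.8, 2.24, 7.4 and 1.98, a log2 change of -1.10 ± 0.33 (adjusted p = 0.0169). The call of *Krt16* was lost with paired libraries averaged (-0.89, adjusted p = 0.0744). Neither overlapped between the groups, although keratin paralogs can share reads, which leaves the split between them uncertain. *Ankrd2*, a stress-responsive ankyrin-repeat protein best known from muscle, was at 1.55, 2.15, 2.95, 3.07 and 1.86 against 21.5, 10.7, 9.93, 11.1 and 14.1, a log2 change of -1.53 ± 0.18 (adjusted p = 4.93e-05). *Fgg*, the gamma chain of fibrinogen, was at 20.2, 9.93, 7.1, 23.4 and 15.6 against 48.9, 73.9, 37.2, 45.7 and 75.2, a log2 change of -1.18 ± 0.34 (adjusted p = 0.013). These too were lower in every resistant library than in any naive one. *Fga*, the alpha chain, was at 1.6, 1.3, 0.887, 4.62 and 1.39 against 3.53, 9.38, 4.09, 4.13 and 5.43, a log2 change of -1.02 ± 0.30 (adjusted p = 0.0151), with Resist-Mac replicate 4 inside the naive range and the call lost without Resist-Mac replicate 5 and Naive-Mac replicate 2 (-0.77). Without depletion the changes of these 5 genes were -1.76, -1.36, -1.17, -1.5 and -1.94.

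The other lower genes named by the rule were of mixed function. *Apcdd1*, an inhibitor of Wnt signaling, had a log2 change of -1.56 ± 0.38 (adjusted p = 0.00544) and lay at 1.38 to 6.23 in Resist-Mac and at 5.66 to 18.2 in Naive-Mac. *Abcc2*, an efflux pump for drug and bile conjugates, fell by 1.46 on the log2 scale (adjusted p = 3.93e-05), but its uncorrected change was -0.61 and its groups overlapped (4.93 to 8.13 against 7.05 to 13.3). *Ttc39c* changed by -1.40 ± 0.14 (adjusted p = 2.01e-05) and *2610528J11Rik* by -0.97 ± 0.23 (adjusted p = 0.00407), neither with any overlap. *Upp1*, a uridine phosphorylase, changed by -1.03 ± 0.33 (adjusted p = 0.0203), and its call was lost without Resist-Mac replicate 4 (-0.89).

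**Figure D3:**
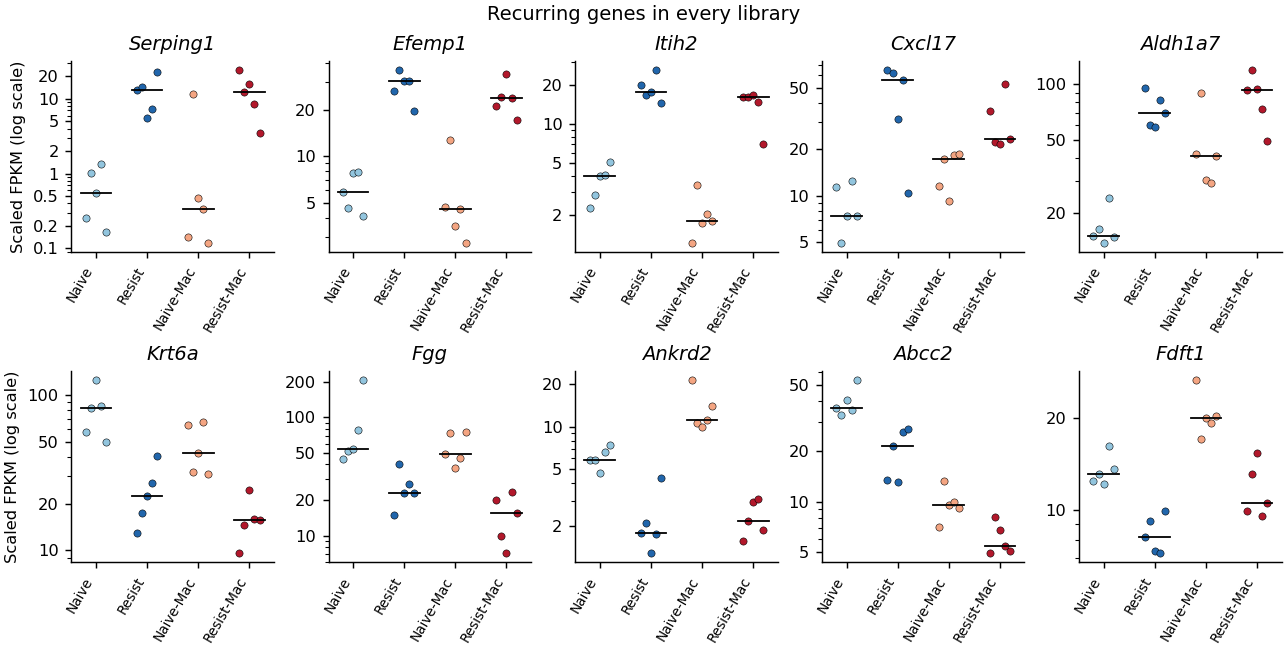
Scaled FPKM (log axis, a separate range for each gene) of 10 recurring genes in the 5 libraries of each of the 4 groups, with a line at the median. Naive and Resist were scaled together, as were Naive-Mac and Resist-Mac, so that levels are to be compared within each pair, where the resistant median is higher in the upper row and lower in the lower row.

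A single library in each depleted group stood apart from the rest on the genes that were called without depletion. The mean log2 deviation of the 375 higher genes from their 10-library mean was 0.29, 0.34, 0.40, 0.35 and -0.04 in Resist-Mac and -0.37, 0.17, -0.36, -0.34 and -0.45 in Naive-Mac. Naive-Mac replicate 2 thus lay above Resist-Mac replicate 5, and the other 8 libraries were well separated. Naive-Mac replicate 2 was the highest naive library for 251 of the 375 genes, against 2152 of all 9452, and Resist-Mac replicate 5 was the lowest resistant library for 201, against 2264 of all. For the 156 lower genes the deviations were -0.23, -0.28, -0.24, -0.17 and -0.11 in Resist-Mac and 0.26, 0.04, 0.19, 0.28 and 0.25 in Naive-Mac, with no overlap.

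The count of recurring higher genes rose when these libraries were left out, a choice made after seeing the data. The libraries were singled out by their values on these same genes, so that a rise is largely built in and is no support for recurrence. The same limit applies wherever these libraries are left out below. Without Naive-Mac replicate 2, 176 of 375 higher genes (46.9%) and 59 of 156 lower genes recurred. Without Resist-Mac replicate 5, 166 of 376 (44.1%) and 57 of 156 did so. With both left out, 198 of 376 higher genes (52.7%) and 57 lower genes recurred, and the stricter set held 162 higher and 38 lower genes, of which 102 and 35 were in the full set. With the libraries that share a code averaged, 116 higher and 55 lower genes recurred. With both libraries left out the all-gene shares hardly moved, at 13.1% called higher and 12.9% lower.

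**Figure D4:**
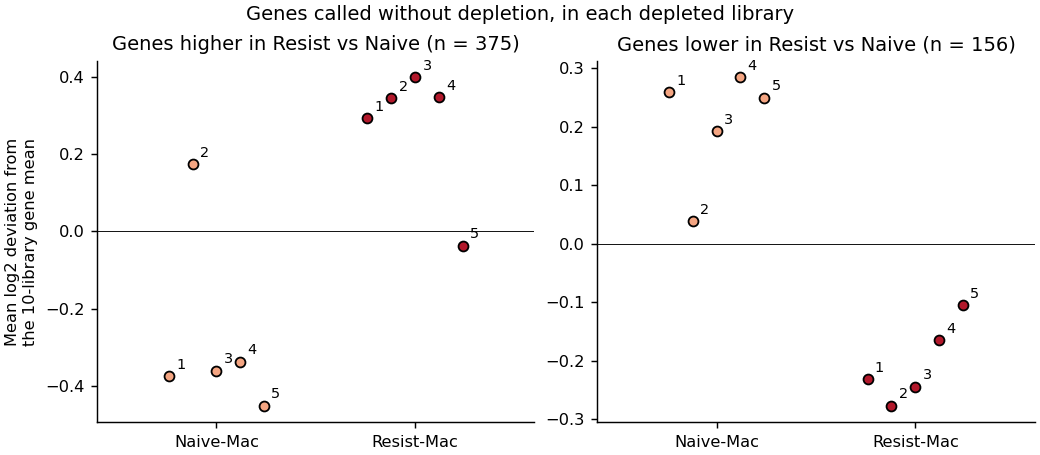
Mean log2 deviation of each depleted library from the 10-library gene mean, over the 375 genes higher (left) and the 156 genes lower (right) in Resist versus Naive, with length and GC content allowed for. Numbers are replicates. Naive-Mac replicate 2 and Resist-Mac replicate 5 lie closest to the other group in both panels.

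Several of the largest resistance changes were not called with depletion when all libraries were used. *Aif1l*, an actin-binding protein, changed by 2.73 without depletion, and with depletion it was at 21.2, 31.8, 25.7, 15 and 4.92 in Resist-Mac and 10.5, 30.3, 7.74, 10.00 and 5.87 in Naive-Mac, a log2 change of 0.44 ± 0.48 (adjusted p = 0.473). *Cps1*, the entry enzyme of the urea cycle, changed by 2.42 without depletion and by 0.48 ± 0.31 (adjusted p = 0.214) with it. *Axl*, a receptor tyrosine kinase, was at 5.86, 5.81, 7.21, 2.39 and 0.731 against 0.83, 6.85, 0.623, 1.31 and 0.75, a log2 change of 0.34 ± 0.51 (adjusted p = 0.601), where it had been 2.02 without depletion. For all 3 the test of the difference itself was called, at -2.28 (adjusted p = 0.00445), -1.87 (adjusted p = 0.000831) and -1.64 (adjusted p = 0.0384). In each of them Naive-Mac replicate 2 was the highest naive library. Without it and Resist-Mac replicate 5 all 3 were called, at 1.19 for *Aif1l* (adjusted p = 0.00361), 0.86 for *Cps1* (adjusted p = 0.00604) and 1.12 for *Axl* (adjusted p = 0.00988). Because these libraries were singled out by their values on genes higher without depletion, a larger change in such genes is largely built in. These p-values are therefore no support for recurrence. *Cps1* was also called without Naive-Mac replicate 2 alone (0.80, adjusted p = 0.00531) and in uncorrected values (1.08, adjusted p = 0.00722). *Vim*, the mesenchymal filament vimentin, was at 105, 80.2, 73.2, 60.6 and 39.2 against 25.3, 112, 32.9, 26.4 and 11.6. Its log2 change was 1.24 ± 0.46 (adjusted p = 0.042), and its call was lost on leaving out any single library other than Naive-Mac replicate 2 and Resist-Mac replicate 5, as it was without the correction (1.10, adjusted p = 0.052) and with paired libraries averaged (1.26, adjusted p = 0.13).

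Among the genes that fell without depletion, *Cited1*, a transcriptional co-regulator, was at 12.1, 6.09, 6.92, 33.2 and 53.5 against 42, 29.2, 20.5, 30.8 and 26.2, a log2 change of -0.38 ± 0.49 (adjusted p = 0.549). *Il1b*, an inflammatory cytokine that neutrophils and macrophages express strongly, was at 32, 2.8, 4.33, 7.5 and 14.3 against 29.7, 8.64, 19, 18.1 and 10.5, a log2 change of -0.01 ± 0.52 (adjusted p = 0.992). Both ranges overlapped widely, and the difference from the change without depletion was not called (adjusted p = 0.147 and 0.072). *Il1b* is also on the neutrophil marker list, and Resist-Mac replicate 1, its highest library, had the highest neutrophil sum (8150). The part of these cells was not tested.

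Genes called in opposite directions were few. With and without the correction, 4 genes were lower without depletion and higher with it, and 0 were the reverse. They were *Atf3*, a stress-induced transcription factor (-0.61 without and 1.66 ± 0.29 with depletion, adjusted p = 0.000677), *Kif21a*, a kinesin (-0.68 and 0.88 ± 0.15, adjusted p = 0.000654), *Adamts9*, a secreted metalloprotease (-0.84 and 0.64 ± 0.10, adjusted p = 0.000382), and *Rassf1*, a Ras-association scaffold (-0.61 and 0.93 ± 0.15, adjusted p = 0.000375). *Atf3* was at 406, 304, 219, 395 and 390.1 in Resist-Mac and 228, 60.6, 109, 181 and 126 in Naive-Mac, with Naive-Mac replicate 1 just above the lowest resistant library. The call of *Adamts9* with depletion was lost under quantile normalization (0.40), without scaling (0.57) and with the longest transcript (0.43). The difference between the comparisons was called for each, from 1.5 for *Adamts9* to 2.27 for *Atf3*.

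Of the genes tied to resistance in this model, the fibronectin receptor subunit *Itga5* recurred. Fibronectin itself was called with depletion, while its change without depletion was under the fold set for a call. The paper, which called genes by another method (NOISeq), reports mRNA and protein of both fibronectin and *Itga5* higher in resistant than in naive tumors. It also reports that both fell in resistant tumors once macrophages were depleted. That fall concerns Resist against Resist-Mac, which was not compared here, and a change between the depleted groups does not test it. *Itga5*, the alpha 5 integrin chain, was at 15.2, 16.9, 17.7, 11.4 and 6.73 in Resist-Mac and at 1.13, 8.55, 3.08, 3.02 and 2.43 in Naive-Mac. Its log2 change was 1.07 ± 0.35 (adjusted p = 0.0253), beside 1.13 ± 0.15 without depletion (adjusted p = 0.000638), with a difference of -0.04 (adjusted p = 0.949). The groups overlapped through Naive-Mac replicate 2, and the call was lost without Naive-Mac replicate 1 or 5 or without Resist-Mac replicate 1, 2 or 3 (0.88 to 1.01) or with paired libraries averaged (0.99, adjusted p = 0.0699). *Fn1*, which encodes fibronectin, was at 414, 461, 640.2, 552 and 432 against 80.8, 252, 94.4, 125 and 136, so that every resistant library was above every naive one. Its uncorrected log2 change of 1.95 became 0.82 ± 0.24 (adjusted p = 0.0127) with length and GC content allowed for, 0.42 and not called at a pseudocount of 0.1, 0.72 and not called with paired libraries averaged (adjusted p = 0.0799), and it was 0.35 ± 0.12 (adjusted p = 0.0497) without depletion. The difference between the comparisons was not called (0.48, adjusted p = 0.19).

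*Src*, the kinase downstream of integrins, was at 5.1, 4.92, 8.05, 7.19 and 7.67 against 2.36, 2.47, 1.58, 2.14 and 1.81, a log2 change of 0.67 ± 0.14 (adjusted p = 0.00168), whose call was lost under quantile normalization (0.44). Without depletion the change was 0.22 (adjusted p = 0.186), and the difference of 0.47 was under the fold set for a call. *Lamb2*, a laminin chain, was called in uncorrected values (1.32) and not after the correction (0.34 ± 0.14, adjusted p = 0.0533). It was called with length alone allowed for (0.66), and after the full correction under quantile normalization (0.70) or without the filter (0.60). Of the activin axis, the ligand genes *Inhba* and *Inhbb* were below the filter in every depleted library, at most 0.659 and 0.0882, and the receptor genes *Acvr1b* and *Acvr2a* were not called (-0.16 ± 0.13, adjusted p = 0.317, and -0.0024 ± 0.11, adjusted p = 0.987).

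Over all genes, 12.3% were called higher and 12.9% lower with depletion and 4.11% and 1.64% without it, and the counts of each list are to be read beside these shares. Of 16 lists compared, mesenchymal genes had the largest share of higher members without depletion. Of 19 tested without depletion, 14 were higher and 0 lower, with a median of 1.00. Of 18 tested with depletion, 5 were higher and 0 lower, with a median of 0.41, and all 5 were also higher without depletion. *Loxl2*, a matrix crosslinking enzyme, was at 17.9, 19.7, 28.1, 16.2 and 14.2 against 4.7, 9.89, 6.3, 5.46 and 7.49, a log2 change of 1.15 ± 0.20 (adjusted p = 0.00074), beside 1.08 without depletion. *Cald1*, an actin-binding regulator of contraction, was at 5.22, 3.8, 3.8, 5.75 and 3.61 against 0.633, 2.27, 1.15, 1.99 and 0.692, a log2 change of 1.04 ± 0.21 (adjusted p = 0.00177), beside 2.02. Both genes were higher in every resistant library than in any naive library. The count of 5 became 9, with a median of 0.80, without Resist-Mac replicate 5 and Naive-Mac replicate 2, and 3 without Naive-Mac replicate 3 or 5 or Resist-Mac replicate 2 or 3 or with paired libraries averaged. The interaction test called 5 of 20 genes smaller with depletion and 0 larger.

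For the extracellular matrix and its receptors, the count of higher members depended on the correction. In uncorrected values 23 of 33 members were higher and 2 lower, with transcripts whose median length was 5614 bases, where that of all genes was 2924. After the correction 5 were higher and 3 lower, shares near those of all genes, with a median of 0.39, against 9 and 2 of 36 without depletion. Higher genes included *Thbs3*, a thrombospondin, at 3.54, 1.36, 2.51, 3.88 and 1.94 against 0.38, 0.447, 0.0302, 0.34 and 0.199, a log2 change of 1.17 ± 0.18 (adjusted p = 0.000271). Lower genes included *Cd47*, the surface signal that restrains phagocytosis, at 42.3, 54.1, 45, 26.6 and 26.3 against 67.6, 68.3, 62, 50.8 and 51.1, a log2 change of -1.07 ± 0.20 (adjusted p = 0.00109), with the call lost under quantile normalization (-0.51). *Thbs3* did not overlap between the groups and recurred, at 1.04 without depletion, and *Cd47*, whose ranges met in Resist-Mac replicate 2, did not recur (0.15, adjusted p = 0.34). Without Resist-Mac replicate 5 and Naive-Mac replicate 2, 10 members were higher, and 14 were higher under quantile normalization.

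Focal adhesion and Src family genes were in part higher with depletion. Of 34 members, 10 were higher and 1 lower (23 and 1 uncorrected), against 2 and 0 of 33 without depletion. *Rock2* and *Rock1*, kinases that drive actomyosin contraction, were at 18.3, 16.4, 18.9, 19.7 and 15.8 against 1.25, 2.56, 2.41, 2.2 and 2.52 and at 8.09, 5.41, 7.11, 7.46 and 7.97 against 1.89, 0.793, 0.653, 1.33 and 1.08. Their log2 changes were 1.88 ± 0.11 (adjusted p = 6.4e-07) and 1.43 ± 0.19 (adjusted p = 0.000102). *Tln1* and *Vcl*, the talin and vinculin that link integrins to actin, changed by 1.22 ± 0.11 (adjusted p = 1.31e-05) and 1.04 ± 0.14 (adjusted p = 0.000135). All 4 were free of overlap and had changes without depletion of 0.10, 0.06, 0.04 and 0.26, and the interaction was called for each. These are long transcripts, and their uncorrected changes were larger, up to 2.58 for *Rock2*.

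Keratin and junction genes tended to be lower in resistant cells in both comparisons. With depletion 10 of 27 were lower and 4 higher (median -0.29), and without it 6 were lower and 2 higher (median -0.18), with 5 lower in both. Under quantile normalization 4 were lower and 4 higher with depletion, and with paired libraries averaged 6 were lower and 5 higher. *Cldn3*, a tight junction claudin, was at 261, 253, 284, 279.6 and 372 against 1015, 696, 682, 825 and 839, a log2 change of -1.13 ± 0.13 (adjusted p = 3.77e-05), beside -0.59 without depletion. *Krt8*, a luminal keratin with a close processed pseudogene that makes its level uncertain, changed by -1.12 ± 0.15 (adjusted p = 0.000135), beside -0.89. Quantile normalization ended both of these calls (-0.37 and -0.56). *Krt14*, a basal keratin, was at 7.86, 6.71, 13, 13.1 and 8.42 against 43, 25.4, 29.2, 38.8 and 19.4, a log2 change of -1.29 ± 0.22 (adjusted p = 0.000631), but 0.32 without depletion (adjusted p = 0.371), and that difference was called (-1.61, adjusted p = 0.00147).

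Of the genes of glycolysis and the hypoxia response, more were called lower than higher in resistant cells in both comparisons and most were not called, and with quantile normalization the direction with depletion was the opposite (7 higher, 4 lower, median 0.30). With median-ratio scaling, 12 of 35 were lower and 2 higher with depletion (median -0.38), and 12 of 33 were lower and 1 higher without it (median -0.47), with 7 lower in both. *Slc2a1*, the glucose transporter GLUT1, was at 120.0, 118, 152, 108 and 94.7 against 175, 146, 217, 187 and 189.6, a log2 change of -0.90 ± 0.14 (adjusted p = 0.000374), beside -1.07 without depletion. *Higd1a*, a mitochondrial protein induced by hypoxia, was at 72.8, 83.7, 70.8, 45 and 45.6 against 218, 131, 115, 124 and 157, a log2 change of -1.02 ± 0.19 (adjusted p = 0.000934), beside -0.72. *Ankrd37*, a hypoxia-induced ankyrin-repeat gene, was at 32.9, 29.2, 26.1, 10.4 and 11.5 against 72.4, 46, 54.7, 58.2 and 77.5, a log2 change of -0.70 ± 0.25 (adjusted p = 0.0316), beside -0.70. The groups did not overlap for *Higd1a* and *Ankrd37*, and overlapped for *Slc2a1*. Quantile normalization ended the calls of *Slc2a1* (-0.18) and *Higd1a* (-0.52). Single libraries decided the call of *Ankrd37*, which was lost without Naive-Mac replicate 3, 4 or 5 or without Resist-Mac replicate 4 or 5 (adjusted p = 0.0569 to 0.0767), as it was with paired libraries averaged (-0.63, adjusted p = 0.0907). *Slc2a1*, *Ankrd37* and, below, *Nr4a1* were chosen for display after their values were seen. *Pdk1* and *Aldoc*, a kinase that holds pyruvate out of the mitochondrion and an aldolase, changed by -1.07 ± 0.11 (adjusted p = 2.2e-05) and -1.03 ± 0.17 (adjusted p = 0.000425), and the call of *Pdk1* was lost without the correction (-0.54). *Car9*, a carbonic anhydrase that hypoxia also induces, went the other way, at 4.12, 4.06, 6.14, 4.97 and 3.82 against 2.49, 2.99, 1.28, 0.989 and 2.29, a log2 change of 1.15 ± 0.19 (adjusted p = 0.00046), beside 0.61 without depletion.

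The promoters of 3 of these hypoxia genes are shown because more members of the list were called lower than higher with median-ratio scaling. They are RefSeq sequences of the GRCm38.p6 assembly, from 250 bases before to 50 after the transcription start, 5′ to 3′ on the strand of the gene. Capitals mark ACGTG or its reverse complement CACGT, the core letters of the hypoxia response element. *Slc2a1* lies at chr4:119108495-119108794 on the plus strand, *Higd1a* at chr9:121857747-121858046 on the minus strand and *Ankrd37* at chr8:45999801-46000100 on the minus strand.
Slc2a1: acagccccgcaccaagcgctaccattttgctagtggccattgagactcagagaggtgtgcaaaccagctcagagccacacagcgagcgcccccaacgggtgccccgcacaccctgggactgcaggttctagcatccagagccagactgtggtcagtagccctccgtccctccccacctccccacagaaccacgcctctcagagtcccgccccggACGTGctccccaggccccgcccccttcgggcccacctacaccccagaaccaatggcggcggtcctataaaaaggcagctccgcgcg
Higd1a: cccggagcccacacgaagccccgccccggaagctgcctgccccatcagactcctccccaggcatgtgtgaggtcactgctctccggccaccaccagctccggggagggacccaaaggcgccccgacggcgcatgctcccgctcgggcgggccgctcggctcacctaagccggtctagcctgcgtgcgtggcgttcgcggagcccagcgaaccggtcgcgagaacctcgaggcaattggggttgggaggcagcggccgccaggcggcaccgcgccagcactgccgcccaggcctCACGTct
Ankrd37: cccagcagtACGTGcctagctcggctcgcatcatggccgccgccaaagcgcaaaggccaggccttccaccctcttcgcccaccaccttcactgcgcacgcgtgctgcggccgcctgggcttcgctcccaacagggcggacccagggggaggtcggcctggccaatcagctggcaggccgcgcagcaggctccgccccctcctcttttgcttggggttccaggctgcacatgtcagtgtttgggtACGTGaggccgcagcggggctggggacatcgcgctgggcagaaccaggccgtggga
The letters were present in 25 of 33 members with a promoter sequence (75.8%), against 21.8% of 27025 genes, and the promoters of the list were richer in G and C (62.9% against 53.8%). They were in 7 of 11 members called lower and in 18 of the other 22, so that their presence did not separate the members that fell. The letters are also part of the E-box CACGTG, and a match is a description of the sequence, not of binding.

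After the correction, cholesterol and fatty acid synthesis was a list with no higher members in either comparison. With depletion 7 of 37 were lower (median -0.37), and without it 11 of 36 (median -0.45), with 3 lower in both. *Fdft1*, which makes squalene, was at 9.95, 13.1, 15.3, 9.56 and 10.5 against 26.5, 17, 19.95, 19.2 and 20.2, a log2 change of -1.12 ± 0.17 (adjusted p = 0.000253), beside -0.69 without depletion. *Idi1*, an isoprenoid isomerase, was at 24.8, 28.6, 32.4, 14.5 and 18.7 against 78.2, 41.6, 34.2, 50.5 and 56.9, a log2 change of -0.91 ± 0.22 (adjusted p = 0.00488), beside -0.90. Neither overlapped between the groups. *Cyp51*, a sterol demethylase, changed by -0.90 ± 0.21 (adjusted p = 0.00354), beside -0.80, and *Stard4*, a sterol carrier, by -0.85 ± 0.16 (adjusted p = 0.00103), with overlap in both. Without the correction *Stard4* changed by -0.41 and was not called. In uncorrected values 7 members were higher and 13 lower with depletion (median -0.16). With quantile normalization 3 members were higher and 8 lower, and without Resist-Mac replicate 3 the number lower was 11.

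Detoxifying enzymes moved in both directions. Of 42 glutathione, antioxidant and drug-handling genes, 10 were higher and 5 lower with depletion, a median of 0.03, against 7 and 3 of 39 without it, and 5 were higher in both. The number higher was 6 without Naive-Mac replicate 1 or 4 or with paired libraries averaged. *Ugt1a6a*, a glucuronosyltransferase whose exons are shared with its neighbors and whose level is therefore uncertain, was at 4.03, 2.74, 4.27, 5.05 and 5.41 against 0.0985, 2.3, 1.01, 1.46 and 0.774, a log2 change of 1.69 ± 0.29 (adjusted p = 0.000597). *Gstm1* and *Gstm2*, glutathione transferases with close copies, changed by 2.46 ± 0.51 (adjusted p = 0.00201) and 1.86 ± 0.59 (adjusted p = 0.0199), with overlap between the groups, and are uncertain for the same reason. The call of *Gstm2* was lost under quantile normalization (1.31), without the correction (1.09), with a replicate block and with paired libraries averaged (1.85, adjusted p = 0.0664). *Prdx5*, a peroxiredoxin, was at 138, 112, 96.2, 76 and 94.8 against 594, 383, 383, 419.9 and 343, a log2 change of -1.56 ± 0.12 (adjusted p = 4.7e-06), and -0.15 without depletion.

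After the correction, activin and TGF-beta signaling, androgen receptor target and interferon genes showed no shared direction with depletion. Of 26 activin and TGF-beta genes, 4 were higher and 2 lower, against 7 and 1 of 27 without depletion, and 3 were higher in both. The number higher was 2 without Naive-Mac replicate 3 or 5 or Resist-Mac replicate 3, and with paired libraries averaged. For the activin and TGF-beta genes the result depended on the processing. In uncorrected values 10 were higher and 1 lower with depletion (median 0.41). At a mean of at least 5 FPKM, 3 were higher and 0 lower (median 0.33). *Ltbp4*, which holds latent TGF-beta in the matrix, was at 35.4, 27.3, 33.3, 51.2 and 41.4 against 3.8, 17.1, 6.2, 6.46 and 7.37, a log2 change of 1.17 ± 0.21 (adjusted p = 0.000756), beside 0.91. *Smad2*, a signal transducer of both ligand families, fell by 0.92 after the correction (adjusted p = 7.44e-05), but its uncorrected change was -0.07, with overlapping groups. Of 26 androgen receptor targets, 1 was higher and 2 lower (0 to 2 and 1 to 3 on leaving out 1 library), against 5 and 0 of 25 without depletion. Of 39 interferon response genes, 4 were higher and 6 lower, and on leaving out 1 library 2 to 9 were higher and 4 to 9 lower, with more higher than lower without Resist-Mac replicate 2 or 3. The medians of the androgen receptor targets and the interferon genes, 0.02 and 0.07, were -0.02 and -0.22 under quantile normalization.

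**Figure D5:**
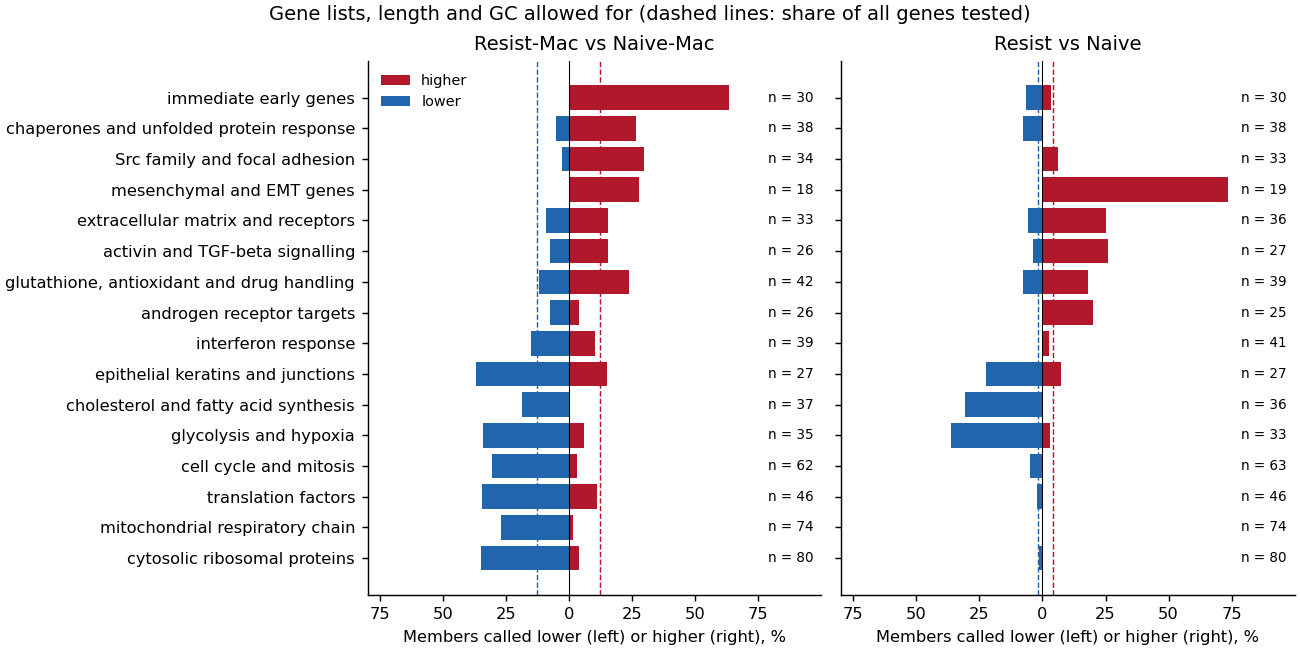
Share of the tested members of 16 gene lists called higher (red, right) and lower (blue, left), in percent, for the comparison with depletion (left panel) and without (right panel), length and GC content allowed for. Dashed lines are the shares over all genes tested. Immediate early genes extend farthest to the right with depletion and mesenchymal genes without it.

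Immediate early genes, which are transcribed within minutes of a stimulus, were higher in Resist-Mac and not in Resist. With depletion 19 of 30 were higher and 0 lower, with a median of 1.07, and without it 1 was higher and 2 lower, with a median of -0.06. The interaction was called above 0 for 21 of 30 and below 0 for none (0). *Klf4*, a zinc finger transcription factor, was at 67.7, 50.9, 53.9, 63.6 and 58.4 against 12.6, 11.2, 7.98, 12.9 and 12.6, a log2 change of 2.07 ± 0.12 (adjusted p = 6.4e-07). *Fosl1*, an AP-1 subunit, was at 57.4, 36.5, 36.4, 33.4 and 37.7 against 19.6, 9.91, 6.87, 14.6 and 7.61, a log2 change of 1.93 ± 0.22 (adjusted p = 3.67e-05). *Egr1*, an early growth response factor, was at 200.2, 165, 293, 209 and 161 against 41.2, 71.8, 49, 55.3 and 56.8, a log2 change of 1.70 ± 0.17 (adjusted p = 1.88e-05). None of these overlapped between the groups. *Nr4a1*, an orphan nuclear receptor, was at 236, 122, 129, 183 and 163 against 71.4, 33.4, 37.6, 73.6 and 42.1, a log2 change of 1.64 ± 0.23 (adjusted p = 0.000153). Without depletion the log2 changes of *Klf4*, *Fosl1*, *Egr1* and *Nr4a1* were 0.30, -0.56, 0.38 and 0.21. These genes also respond to handling of tissue before RNA is extracted, and handling cannot be told apart from batch and treatment here.

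The promoters of *Klf4* (chr4:55532426-55532725, minus strand) and *Nr4a1* (chr15:101266596-101266895, plus strand) are shown because more members of this list were called higher than lower. They are from the same source as above. Capitals mark TGACG or its reverse complement CGTCA, the conserved letters of the cyclic AMP response element.
Klf4: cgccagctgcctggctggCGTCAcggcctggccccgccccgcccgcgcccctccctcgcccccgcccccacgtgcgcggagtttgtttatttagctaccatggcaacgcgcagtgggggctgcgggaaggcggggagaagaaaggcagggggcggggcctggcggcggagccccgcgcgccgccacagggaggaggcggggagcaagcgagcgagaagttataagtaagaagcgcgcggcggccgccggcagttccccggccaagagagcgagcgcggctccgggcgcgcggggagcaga
Nr4a1: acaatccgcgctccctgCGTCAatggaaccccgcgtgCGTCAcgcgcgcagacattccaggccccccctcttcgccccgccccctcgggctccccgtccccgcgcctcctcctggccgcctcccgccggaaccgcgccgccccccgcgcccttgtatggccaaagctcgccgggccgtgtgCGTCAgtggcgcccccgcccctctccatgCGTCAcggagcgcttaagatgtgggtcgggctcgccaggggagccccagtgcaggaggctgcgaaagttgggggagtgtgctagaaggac
These letters were present in 16 of 25 immediate early genes with a promoter sequence (64%), against 23% of 27025 genes. They were in 12 of 14 members called higher and in 4 of the other 11. The base composition of these promoters also differed from the rest (63.1% G and C against 53.8%).

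Stress and chaperone genes were in part higher with depletion. Of 38, 10 were higher and 2 lower, against 0 and 3 without depletion, and 21 were higher with quantile normalization. *Ppp1r15a*, which restarts translation after stress, was at 17.7, 15, 17.5, 21 and 15.2 against 5.64, 4.34, 3.46, 5.44 and 4.63, a log2 change of 1.69 ± 0.12 (adjusted p = 1.81e-06). *Hsp90b1*, a chaperone of the endoplasmic reticulum, changed by 1.16 ± 0.11 (adjusted p = 1.65e-05) and *Atf4*, the main transcription factor of the integrated stress response, by 1.03 ± 0.11 (adjusted p = 2.46e-05). Only *Atf4* of these overlapped between the groups, and without depletion they changed by 0.17, -0.13 and -0.08.

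Of 62 cell cycle genes, 19 were lower in Resist-Mac, 2 were higher and the others were not called (median -0.19), against 3 lower and 0 higher of 63 without depletion. *Cdk1*, the mitotic kinase, was at 10.9, 15.3, 12, 6.35 and 8.63 against 31.7, 23.1, 22.2, 21.4 and 34.9, a log2 change of -1.68 ± 0.23 (adjusted p = 0.000136). *Gins2*, a subunit of the replicative helicase, changed by -1.62 ± 0.23 (adjusted p = 0.000177) and *Birc5*, which encodes survivin, by -1.19 ± 0.19 (adjusted p = 0.000406). *Smc4*, a condensin subunit, was higher, at 25.5, 30.7, 24.7, 16.9 and 16.5 against 8.77, 6.89, 4.5, 7.06 and 9.33 and a log2 change of 1.37 ± 0.20 (adjusted p = 0.000187). These 4 genes did not overlap between the groups. Their changes without depletion were -0.13, -0.47, -0.31 and 0.12.

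The lists of short, highly expressed genes were those most changed by the processing. Of 80 cytosolic ribosomal protein genes, 75 were lower uncorrected, 28 were lower and 3 higher after the correction (median -0.43), and with quantile normalization 2 were lower and 22 higher (median 0.38). Of 74 respiratory chain genes, 68 were lower uncorrected and 20 after the correction (median -0.38), and the median with quantile normalization was 0.11. Of 46 translation factors, 16 were lower and 5 higher (median -0.37), with a median of 0.20 under quantile normalization. The median transcript lengths of the ribosomal and respiratory chain lists were 815 and 824 bases. Of 17 receptor tyrosine kinase genes, whose transcripts are long, 12 were higher uncorrected and 1 after the correction. Without depletion 1 of 80 ribosomal protein genes and 0 of 74 respiratory chain genes were called.

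Large changes with depletion were also found on genes that were not called in Resist versus Naive after the correction. The mouse *Myc* gene was at 103, 80.1, 97.3, 146 and 156 in Resist-Mac and 13.3, 8.52, 5.85, 10.7 and 7.61 in Naive-Mac, a log2 change of 3.63 ± 0.21 (adjusted p = 6.4e-07), while the range was 144 to 189 in Resist and 143 to 178 in Naive. The tumor model carries a Myc transgene, and how reads from it were assigned is not given in the sources used here. *Rpl30*, a ribosomal protein gene of a family with many pseudogene copies and therefore uncertain, was at 1181, 1495, 1268, 855 and 999.6 against 172, 106, 85.9, 103 and 129, a log2 change of 4.05 ± 0.12 (adjusted p = 1.37e-09), while 28 of the 80 genes of its family were lower. *Fmo1*, a flavin monooxygenase, was at 37.3, 31.4, 30.9, 36.3 and 28.5 against 2.15, 5.63, 1.97, 1.63 and 0.914, a log2 change of 3.71 ± 0.27 (adjusted p = 2.66e-06). Every resistant library was far above every naive one in these genes. *Nutf2*, a nuclear transport factor, and *Arc*, an immediate early gene first known from neurons, changed by 3.59 ± 0.11 (adjusted p = 1.45e-09) and 2.61 ± 0.20 (adjusted p = 3.63e-06).

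Of the genes that were lower by most, *H2ac23*, a histone H2A gene among near-identical copies and so uncertain, was at 17.3, 41.9, 19, 13.9 and 23.7 against 1082, 677, 621, 929 and 749, a log2 change of -4.35 ± 0.25 (adjusted p = 6.4e-07). *Adamts13*, the protease that cuts von Willebrand factor, was at 0.802, 1.21, 1.07, 0.476 and 0.562 against 14.6, 6.19, 5.04, 8.55 and 9.82, a log2 change of -3.10 ± 0.29 (adjusted p = 1.18e-05). *Tpd52*, a vesicle trafficking protein often amplified in prostate cancer, was at 46.2, 49.2, 48.1, 37.8 and 34.8 against 189.8, 153, 175, 154 and 189, a log2 change of -2.61 ± 0.13 (adjusted p = 3.1e-07). All were lower in every resistant library, with a wide gap. *Eapp*, *Tmem80* and *Ccdc167* changed by -2.83 ± 0.15, -2.45 ± 0.16 and -2.39 ± 0.29. The changes of all these 6 genes without depletion lay between -0.19 and -0.07, and the batches of the depleted libraries cannot be told apart from their treatment.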

How the data were processed

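RNA of sorted tumor cells was enriched with oligo-dT and sequenced as paired ends on BGISEQ-500. The submitters' processing notes name Bowtie2 and the build mm9; the quantification tool and annotation are not given in the sources used here. The deposited Resist-Mac and Naive-Mac tables hold linear FPKM, and the authors' table of Naive and Resist holds log2(FPKM + 1), which was taken back to FPKM. The authors made each table separately, and a change along transcript length between tables therefore cannot be told apart from a change between groups. No read counts were used, so that the number of libraries, 5 a group, is what is known of the precision.

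Genes were matched by Entrez identifier to RefSeq symbols, and those averaging 1 FPKM or more in the 10 libraries of a comparison were kept. Libraries were scaled by the median ratio, and log2(FPKM + 1) was tested with limma 3.58.1 (R 4.3.3) with a trended prior variance, Benjamini-Hochberg adjustment over all genes tested, and calls at adjusted p under 0.05 and fold change over 1.5. Natural splines (4 degrees of freedom each) of log transcript length and GC content, taken from the GENCODE M21 transcript matched to RefSeq, were fitted to each library's deviation from the gene means and subtracted. The difference of the changes was an interaction term over all 20 libraries. Close processed pseudogenes were found with minimap2 2.31-r1302, and the tests were tried on simulated data. Promoter sequences were matched by symbol and are of another build than the files, whose coordinates were not used. Tables and figures were made with Python 3.11.15, pandas 2.3.3, numpy 2.4.6 and matplotlib 3.10.9.

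Named genes were the 10 higher and 10 lower recurring genes with the largest smaller change among those called in every fit, above 0 in every library and without a close pseudogene; the 6 higher and 6 lower with the largest corrected change with depletion that did not overlap; the 5 each way with the largest change without depletion; up to 4 called in opposite directions; genes tied to tumor cells by the study; and up to 4 called members a list. Some genes these rules named are not reported here. The members, lists and tests were chosen with earlier results of these data known, and a list's count is therefore no independent support for its direction. Alternatives were other pseudocounts, filters, scalings, folds, prior variances, corrections, a noise-distribution call after the study's method, a replicate block, averaging libraries that share a code in their names, and leaving out libraries.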

Additional observations from a re-analysis of the deposited data

Results flagged for a closer look

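A library far from the other 4 of its group by Dixon's test was found for 14 of the 190 groups of values examined, where chance flags about 1 in 20. Naive-Mac replicate 2 was the highest naive library for *Serping1* (11.5 scaled FPKM), *Upk1b* (5.86), *Cps1* (3.17), *Axl* (6.85) and *Inhbb* (0.0447), and for the mean deviation of the genes higher in Resist than in Naive (0.17). Resist-Mac replicate 5 was the lowest resistant library for *Itih2* (7.04) and *Upk1b* (1.61) and for that same mean deviation (-0.037). The other libraries were Resist-Mac replicate 3 for *Ephx1* (28.7), Resist-Mac replicate 1 for *Fosl1* (57.4), Resist-Mac replicate 2 for *Rad50* (3.75), Naive-Mac replicate 5 for *Stard4* (8.49) and Naive-Mac replicate 1 for *Rock2* (1.25). Of these 14 values, 9 belonged to Naive-Mac replicate 2 or Resist-Mac replicate 5.

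The change between resistant and naive cells differed with depletion for 2217 genes by the interaction test, in which batch cannot be told apart from treatment. Among the genes named in the text, the log2 difference of the changes was positive for *Rpl30* (4.35), *Myc* (3.65), *Nutf2* (3.55), *Fmo1* (3.53), *Fosl1* (2.50), *Atf3* (2.27), *Arc* (2.12), *Rock2* (1.81), *Klf4* (1.77), *Kif21a* (1.59), *Rassf1* (1.54), *Ppp1r15a* (1.53), *Adamts9* (1.5), *Nr4a1* (1.43), *Rock1* (1.40), *Egr1* (1.31), *Hsp90b1* (1.29), *Smc4* (1.25), *Rad50* (1.08), *Cd68* (1.01), *Tln1* (1.20), *Atf4* (1.11) and *Vcl* (0.78). It was negative for *H2ac23* (-4.25), *Adamts13* (-3.01), *Eapp* (-2.72), *Tpd52* (-2.54), *Tmem80* (-2.39), *Aif1l* (-2.28), *Ccdc167* (-2.22), *Cps1* (-1.87), *Axl* (-1.64), *Krt14* (-1.61), *Cdk1* (-1.56), *Prdx5* (-1.41), *Cd47* (-1.23), *Gins2* (-1.17), *Birc5* (-0.89), *Bad* (-0.75), *Bok* (-0.62), *Smad2* (-0.77) and *Aldoc* (-0.71).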

How the results depend on the processing

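Across the alternatives, 172 of 188 counts of genes stayed within 1.5 times the reported count, and of 2709 log2 changes of named genes 2539 kept their direction and call, 139 lost the call, 9 gained one and 22 changed sign. For Resist versus Naive the count of 614 was 208 at a fold over 2, 385 at a mean of at least 5 FPKM and 342 by the noise distribution, and the corrected 575 was 185, 373 and 351. For Resist-Mac versus Naive-Mac the 4445 genes were 2051 at a fold over 2, 1745 by the noise distribution (390 higher, 1355 lower) and 2454 with the correction, and the corrected count was 736 at a fold over 2 and 988 by the noise distribution (289 higher, 699 lower). Without scaling the uncorrected split was 3629 higher and 879 lower, with the median of all genes at 0.34 instead of -0.01, and the corrected split was 1135 and 1185. Genes with a differing change numbered 643 at a fold over 2. Recurring genes were 76 at a fold over 2 and 157 at a mean of at least 5 FPKM (286 reported), and with the correction 49 and 125 (198 reported). The cause of these moves was not tested beyond the stricter thresholds themselves.

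Leaving out 1 library gave 514 to 787 genes for Resist versus Naive (484 to 735 corrected), 4185 to 4741 for Resist-Mac versus Naive-Mac (2261 to 2673 corrected), 2084 to 2469 for the difference, and 254 to 357 recurring genes (171 to 243 corrected). With a replicate block the counts were 587 and 549 without depletion, 4473 and 2479 with it, 2237 for the difference and 281 and 197 recurring. The labels give no basis for pairing by number. The deviations of same-numbered libraries correlated at 0.31, 0.23, -0.38, 0.25 and -0.16.

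Changes of sign were found without the correction for *Abhd2* (0.12), *Acvr1b* (0.43), *Steap2* (0.21) and *Acvr2a* (0.40), with the longest transcript, an alternative added after seeing the data, for *Acvr2a* (0.055), *Eif4ebp2* (-0.12) and *Il1b* (0.041), without the filter for *Acvr2a* (0.045), without scaling for *Acvr2a* (0.0091), at a mean of at least 5 FPKM for *Il1b* (0.075), with libraries that share a code averaged for *Il1b* (0.37), and on leaving out 1 library for *Acvr2a* (-0.065 to 0.057) and *Il1b* (-0.42 to 0.39). List medians changed sign under quantile normalization for ribosomal proteins (0.38), glycolysis and hypoxia (0.30), translation factors (0.20) and the respiratory chain (0.11), and without the filter for extracellular matrix and receptors (-0.24) and receptor tyrosine kinases (-0.10), and at a mean of at least 5 FPKM for DNA repair (0.071).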

Other observations

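Of 17 Bcl2 family and apoptosis genes, 7 were lower in Resist-Mac than in Naive-Mac and 0 higher (median -0.41), where 12.9% of all genes were lower, beside 1 each way without depletion. The number lower was 4 without Naive-Mac replicate 3 or Resist-Mac replicate 4 and under quantile normalization, and 2 with the length spline alone, and the interaction was called below 0 for 6. *Bad*, a death promoter that opposes the survival members of the family, was at 38.5, 40.5, 40.3, 21.7 and 28.2 in Resist-Mac and at 88, 79.1, 54.6, 58.5 and 70.5 in Naive-Mac, a log2 change of -0.76 ± 0.16 (adjusted p = 0.00218). *Bok*, another death promoter, was at 26.9, 33.7, 29.7, 27.4 and 24.7 against 85, 52, 36.6, 73.3 and 52.6, a log2 change of -0.71 ± 0.17 (adjusted p = 0.00399). Both calls were lost under quantile normalization (-0.55 and -0.54) and with the length spline alone (-0.50 and -0.46). Neither overlapped between the groups, and without depletion their changes were 0.0016 and -0.09. *Birc5*, described above with the cell cycle, was the member with the largest change. It inhibits death, so that the members that were lower act in both directions.

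Of 55 DNA repair genes, 10 were lower and 2 higher with depletion (median -0.15), where 12.9% and 12.3% of all genes were, and 3 each way at a mean of at least 5 FPKM. Without depletion 0 were lower and 1 higher of 60. *Rad50*, of the complex that senses double-strand breaks, was higher, at 4.82, 3.75, 4.96, 4.8 and 5.28 against 0.422, 1.17, 0.493, 0.851 and 1.5 and a log2 change of 1.14 ± 0.15 (adjusted p = 0.000116). The groups did not overlap, and without depletion it changed by 0.09.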
